A study of Homo sapiens with 12 samples.

Results

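The 10 genes described here encode the subunits of the hypoxia-inducible factors (HIFs) and the enzymes that sense oxygen for them. They were taken by symbol from the deposited expression table, and all 10 were found among its 20263 genes. The alpha subunits are HIF1A (HIF1α), EPAS1 (HIF2α) and HIF3A (HIF3α). Their partners are ARNT (HIF1β) and ARNT2. The oxygen sensors are the prolyl hydroxylases EGLN1 (PHD2), EGLN2 (PHD1) and EGLN3 (PHD3) and the asparaginyl hydroxylase HIF1AN (FIH). VHL encodes the recognition subunit of the ubiquitin ligase that marks hydroxylated alpha subunits.

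In cells with oxygen, prolyl hydroxylases modify the alpha subunits, the VHL protein binds the modified form, and the proteasome degrades it. FIH modifies a second site and blocks coactivator binding. Under hypoxia the enzymes slow, the alpha subunits accumulate, pair with ARNT and bind short hypoxia response elements in DNA. EGLN1 and EGLN3 are themselves known HIF target genes, which makes them both regulators and readouts of the pathway. These controls act mainly on the protein, whereas the values below are mRNA levels.

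The cells were U87 (U-87 MG), a human glioblastoma line, and messenger RNA was sequenced. The groups were cells with an empty vector (vector), 2 single knockouts called HIF1α-ko and HIF2α-ko, and the dual knockout HIF1α/2α-ko. There were 4 groups of 3 libraries, and all 12 came from cells kept under hypoxia with 1% O2. The record of the experiment gives 72 h of hypoxia and the methods give 12 h for mRNA detection in general. For other assays, such as proliferation and flow cytometry, the methods give 3 days at 1% O2 with temozolomide. The treatment labels of these libraries name no temozolomide. How the knockouts were made, whether each group is 1 clone and whether replicates are separate cultures are not given in the sources used here, so a p-value measures the spread between these libraries, which may be technical. There is no normoxic group, so every change below is one between genotypes under low oxygen.

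The values are TPM, a unit of transcript abundance that is corrected for gene length and sums to the same total in every library. Levels of different genes can therefore be set side by side, but the sequencing depth is unknown. Markers of the line were checked first. VIM was listed at 5635 to 14690 TPM and LGALS1 at 6281 to 12415 TPM, CDKN2A and CDKN2B, which this line has lost, were listed at 0 in every library, and NES, a neural progenitor marker, was low at 2.64 to 6.17 TPM. The summed level of the 6 markers of the line was lower in HIF1α/2α-ko (12954 to 16880 TPM) than in the other groups (19566 to 26170 TPM), and its part in the changes below was not tested. The summed level of 3 leukocyte markers was 0.165 to 0.763 TPM, most of it CD14, with PTPRC at or below 0.033 TPM. That of 3 epithelial markers was 0.0425 to 0.724 TPM, with EPCAM up to 0.575 TPM and KRT5 at or below 0.0353 TPM. Summed endothelial markers were at 1.15 to 7.08 TPM. Summed neuronal markers were at 1.52 to 4.28 TPM, most of it SNAP25 (1.34 to 4.28 TPM). They were lower in HIF1α/2α-ko (1.52 to 2.55 TPM) and HIF1α-ko (2.11 to 2.76 TPM) than in vector (3.0 to 4.28 TPM). HIF2α-ko was at 3.63 to 4.23 TPM. The part of these markers in the results was not tested. In every group replicate 1 was the library least like the others. Pearson's r across genes with the rest of its group was 0.966 to 0.968 for vector replicate 1, against 0.989 between the other two. It was 0.9755 to 0.9771 against 0.992 for HIF1α/2α-ko, 0.982 to 0.983 against 0.991 for HIF1α-ko and 0.985 against 0.992 for HIF2α-ko. What sets these libraries apart was not tested.

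EPAS1 had the highest mean of the members in every group and HIF1A the second highest. In vector the mean levels ran from EPAS1 at 322 ± 31.5 TPM (SD, n = 3) and HIF1A at 124 ± 23.5 TPM through ARNT at 33.5, EGLN2 at 30.8, EGLN1 at 20.3, VHL at 14.7, HIF1AN at 14.0 and EGLN3 at 11.4 TPM to HIF3A at 3.75 and ARNT2 at 1.72 TPM. The libraries of neighbours in this order overlapped from ARNT down to EGLN3, so that stretch has no firm order, whereas EPAS1, HIF1A, HIF3A and ARNT2 were each separate from their neighbours. Among all 20263 genes, the mean of the members over the 12 libraries ranged from percentile 49.3 for ARNT2 to percentile 96.7 for EPAS1. By the ratio of the highest to the lowest library, EGLN3 varied most among the members, 32.1-fold from 0.771 to 24.7 TPM, and HIF1AN least, 1.70-fold from 11.8 to 20.1 TPM. In HIF1α/2α-ko, EGLN3 came last by its mean, although its libraries overlapped those of HIF3A.

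The first question was which of these genes changed when HIF1α, HIF2α or both were knocked out. Each group was set against vector in limma on log2(TPM + 1), over the 11731 genes with at least 1 TPM in at least 3 libraries, and a gene is called at a Benjamini-Hochberg adjusted p under 0.05. All 10 members passed the filter, ARNT2 with 10 libraries at 1 TPM or more and EGLN3 with 11. The fold changes are on the log2(TPM + 1) scale, which understates changes of low genes.

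In HIF1α-ko, 5 of the 10 members were called, where 26.1% of all genes tested were called. HIF1A, EGLN1, HIF3A and ARNT fell and VHL rose, and among all genes 8.77% fell and 17.3% rose. For HIF2α-ko, 2 members were called, EPAS1 and ARNT, and both fell. The background there was 11.0%, with 5.89% of genes lower and 5.07% higher. The dual knockout had 8 members called against a background of 46.7%. HIF1A, EPAS1, HIF3A, ARNT, EGLN1 and EGLN3 fell, and EGLN2 and VHL rose, whereas 14.8% of all genes fell and 31.8% rose. The median gene moved by 0.18 in the HIF1α knockout, -0.04 in the HIF2α knockout and 0.21 in the dual knockout on the log2 scale, so small rises of members in the first and the last of these are to be read against that shift. With either of 2 other scalings between libraries, rises made up 45.6% or 51.2% of all calls in the HIF1α knockout in place of 66.4%, 56.5% or 53.0% in the HIF2α knockout in place of 46.3%, and 52.3% or 49.8% in the dual knockout in place of 68.2%. The first value of each pair is from median ratio scaling and the second from quantile normalization. The 3 comparisons share the vector libraries. Each count includes the targeted genes, HIF1A in HIF1α-ko, EPAS1 in HIF2α-ko and both in HIF1α/2α-ko. Apart from EPAS1, ARNT was the only member called in HIF2α-ko.

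**Figure D1:**
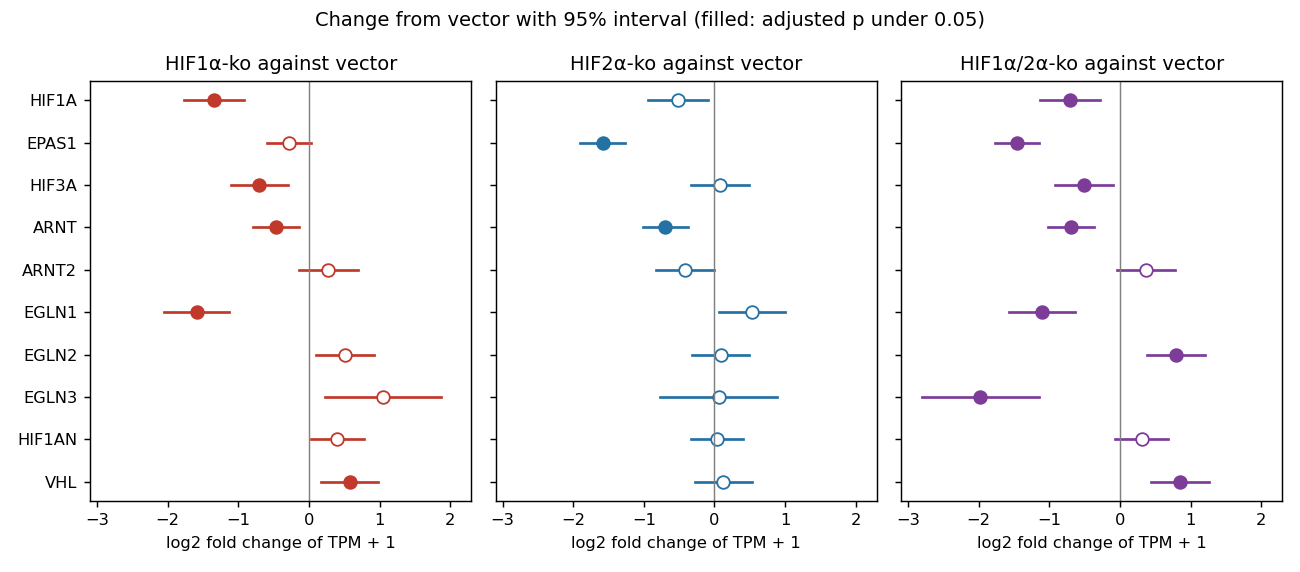
The log2 fold change of TPM + 1 against vector is plotted for the 10 members in each knockout group, with 95% intervals from limma. Filled points are called at an adjusted p under 0.05 (5, 2 and 8 members from left to right), and the vertical line marks no change. EGLN3 lies to the right of the line in HIF1α-ko (1.05, not called) and to the left in HIF1α/2α-ko (-1.98).

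HIF1A (chr14:61695513-61748259, GRCh38, GENCODE 29), the targeted gene of 2 of the groups, was at 112, 110.0 and 151 TPM in vector, at 57.3, 49.5 and 38.6 TPM in HIF1α-ko, at 108, 76.1 and 76.6 TPM in HIF2α-ko and at 89.2, 67.8 and 69.4 TPM in HIF1α/2α-ko. Every knockout library lay below every vector library, although the highest of HIF2α-ko was close to the lowest of vector. The mean in HIF1α-ko was 39.0% of vector (log2 change -1.34, SE 0.20, adjusted p = 0.000851), and in HIF1α/2α-ko it was 60.7% of vector (-0.71, SE 0.20, adjusted p = 0.0104). In HIF2α-ko, where HIF1A was not targeted, the level was 69.8% of vector and was not called (-0.52, adjusted p = 0.112). With replicates 2 and 3 of every group it was called as lower (-0.75, adjusted p = 0.0122). That setting called 4283 of the 11731 genes in HIF2α-ko, and the main fit 1286. The dual knockout did not differ detectably from HIF2α-ko in HIF1A (-0.19, 95% interval -0.62 to 0.23) and was higher than HIF1α-ko (0.64, adjusted p = 0.0287). That last call was lost with no filter (adjusted p = 0.0716) and with either scaling between libraries (adjusted p = 0.0626 and 0.0787). It was also lost when the fit left out replicate 2 or 3 of HIF1α-ko, or replicate 1 or 3 of the dual knockout (adjusted p = 0.0529 to 0.121), so that 7 of 22 alternatives ended it. A gene's TPM does not tell transcripts with an edited reading frame from intact ones.

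EPAS1 (chr2:46293667-46386703) was at 286, 333 and 346 TPM in vector, at 251, 288 and 255 TPM in HIF1α-ko, at 87.6, 118 and 116 TPM in HIF2α-ko and at 101, 120 and 130 TPM in HIF1α/2α-ko. The 6 libraries in which EPAS1 was targeted lay far below the other 6. The mean fell to 33.3% of vector in HIF2α-ko (log2 change -1.59, SE 0.15, adjusted p = 0.000375) and to 36.4% in HIF1α/2α-ko (-1.45, SE 0.15, adjusted p = 1.3e-05), and these groups did not differ detectably from each other (0.13, 95% interval -0.18 to 0.45). In HIF1α-ko its libraries overlapped those of vector at 82.2% of the mean (-0.28, adjusted p = 0.168). EPAS1 and HIF1A together summed to 446 ± 49.9 TPM in vector, 313 ± 22.3 TPM in HIF1α-ko, 194 ± 1.32 TPM in HIF2α-ko and 192 ± 6.18 TPM in the dual knockout (SD, n = 3).

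The balance of the 2 main alpha subunits can be read within each library, where scaling between libraries plays no part. The ratio of EPAS1 to HIF1A was 2.56, 3.03 and 2.28 in vector, 4.38, 5.82 and 6.60 for the HIF1α knockout, 0.814, 1.55 and 1.51 in HIF2α-ko, and reached 1.14, 1.76 and 1.87 when both were knocked out. No knockout library overlapped the vector libraries. HIF1A was targeted in HIF1α-ko, EPAS1 in HIF2α-ko and both in the dual knockout, so these ratios restate changes in targeted genes. Relative to vector, the geometric mean ratio was 2.12-fold in HIF1α-ko, whereas HIF2α-ko stood at 0.476-fold and the dual knockout at 0.596-fold. A two-sided exact permutation test gave p = 0.1 for each, the smallest value that 3 libraries against 3 allow, and 0.15 after adjustment over the 12 ratio tests made. EPAS1 mRNA exceeded HIF1A mRNA in every library but HIF2α-ko replicate 1.

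HIF3A, whose product has a weaker activation domain and in some isoforms opposes the other alpha subunits, was at 3.13, 3.91 and 4.22 TPM in vector, 1.44, 2.38 and 1.98 TPM in HIF1α-ko, 3.59, 4.75 and 3.70 TPM in HIF2α-ko and 1.73, 2.72 and 2.63 TPM in HIF1α/2α-ko. It was lower in both groups without HIF1α, with no overlap with vector, and was at the vector level in HIF2α-ko. The log2 change was -0.70 in HIF1α-ko (SE 0.19, adjusted p = 0.0174) and -0.51 in HIF1α/2α-ko (SE 0.19, adjusted p = 0.0418). It was also lower in HIF1α-ko than in HIF2α-ko (-0.78, adjusted p = 0.0109) and lower in HIF1α/2α-ko than in HIF2α-ko (-0.58, adjusted p = 0.0229). The call in the dual knockout did not hold in 9 of 20 alternatives, among them no filter and a fit of the compared groups alone, and the HIF1α-ko call did not hold without vector replicate 2 or 3 or without replicate 1 or 3 of its own group. Isoforms cannot be told apart in a gene level.

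ARNT, the constitutive partner of the alpha subunits, was at 29.8, 38.6 and 32.0 TPM in vector, 21.2, 27.0 and 23.8 TPM in HIF1α-ko, 17.7, 21.6 and 21.5 TPM in HIF2α-ko and 20.8, 18.4 and 21.2 TPM in HIF1α/2α-ko. Every knockout library was below every vector library. It was the member called in all 3 knockouts, at 71.7%, 60.6% and 60.2% of the vector mean. The log2 changes were -0.46 (SE 0.15, adjusted p = 0.0393), -0.69 (SE 0.15, adjusted p = 0.0133) and -0.70 (SE 0.15, adjusted p = 0.00231). The call in the dual knockout held in all 21 alternatives. The call in HIF1α-ko was lost in 9 of 21, and that in HIF2α-ko when only these groups were fitted (adjusted p = 0.0540), without vector replicate 2 (0.0516) or without HIF2α-ko replicate 1 (0.0516).

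ARNT2, a paralog of ARNT used mainly in neural cells, had the lowest mean of the members in vector and HIF2α-ko. It was at 2.65, 1.34 and 1.17 TPM in vector, 2.37, 2.32 and 1.94 TPM in HIF1α-ko, 1.21, 0.877 and 0.875 TPM in HIF2α-ko and 2.65, 2.27 and 2.36 TPM in HIF1α/2α-ko. Vector replicate 1 was at the level of the highest knockout libraries and the other vector libraries were not. ARNT2 was not called against vector in any knockout with all 12 libraries. Without vector replicate 1 it was called as higher in HIF1α-ko (log2 change 0.51, adjusted p = 0.0203) and in the dual knockout (0.60, adjusted p = 0.00576), but not in HIF2α-ko (-0.19, adjusted p = 0.399). The dual knockout exceeded HIF2α-ko in ARNT2 (log2 difference 0.79, SE 0.19, adjusted p = 0.00501), and this held in all 21 alternatives in which it was tested. The ratio of ARNT to ARNT2 was 20.7 in vector (geometric mean), 10.9 in HIF1α-ko, 20.7 in HIF2α-ko and 8.30 when both were knocked out. The ratios of the dual knockout did not overlap those of vector (exact permutation p = 0.1). Those of HIF1α-ko (8.95 to 12.3) overlapped vector through vector replicate 1 (11.2) and not through the other two (28.8 and 27.3), and without that library the log2 changes of the ratio were -1.37 in HIF1α-ko and -1.76 in the dual knockout in place of -0.93 and -1.32.

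The hydroxylase genes split by genotype. EGLN1 (chr1:231363751-231425044, minus strand), the main prolyl hydroxylase acting on HIF1α in most cells, was at 15.4, 21.5 and 23.9 TPM in vector, 4.47, 6.91 and 6.80 TPM in HIF1α-ko, 25.1, 31.4 and 32.2 TPM in HIF2α-ko and 6.89, 10.3 and 9.42 TPM in HIF1α/2α-ko. The groups without HIF1α lay below all others, and the HIF2α-ko libraries lay above all vector libraries. EGLN1 fell to 29.9% of vector in HIF1α-ko (log2 change -1.59, SE 0.21, adjusted p = 0.000572) and to 43.7% in HIF1α/2α-ko (-1.10, SE 0.21, adjusted p = 0.0012). In HIF2α-ko it was at 146% of vector and was not called (0.54, 95% interval 0.07 to 1.00, adjusted p = 0.13), whereas with quantile normalization it was (adjusted p = 0.0458). HIF1α-ko and HIF2α-ko differed in EGLN1 by -2.13 (SE 0.21, adjusted p = 3.91e-05), and HIF1α/2α-ko and HIF2α-ko by -1.64 (adjusted p = 7.94e-05).

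EGLN3 (chr14:33924231-34462774, minus strand), the prolyl hydroxylase most strongly induced by hypoxia in many cells, was at 19.7, 6.68 and 7.66 TPM in vector, 19.3, 22.3 and 24.7 TPM in HIF1α-ko, 7.09, 12.7 and 13.2 TPM in HIF2α-ko and 0.771, 2.96 and 2.21 TPM in HIF1α/2α-ko. The dual knockout lay below every other library, and vector replicate 1 lay with the HIF1α-ko libraries rather than with its own group. The mean in HIF1α/2α-ko was 17.4% of vector (log2 change -1.98, SE 0.38, adjusted p = 0.00114). In HIF1α-ko it was 195% of vector, which was not called (1.05, SE 0.38, adjusted p = 0.0598), and in HIF2α-ko it was 96.6% (0.06, 95% interval -0.77 to 0.89). The HIF1α-ko change was called without vector replicate 1 (1.50, adjusted p = 0.00542), without HIF1α/2α-ko replicate 1 (adjusted p = 0.0373) and with replicates 2 and 3 of every group (1.59, adjusted p = 0.000119). Without vector replicate 1 the change in HIF2α-ko was 0.51 (adjusted p = 0.3), and with replicates 2 and 3 of every group it was 0.77 and was called (adjusted p = 0.0048). That last setting called 4283 of the 11731 genes in HIF2α-ko and 6461 in HIF1α-ko, where the main fit called 1286 and 3060. The EGLN3 change in HIF1α/2α-ko was -1.53 without vector replicate 1 (adjusted p = 0.00298). With replicates 2 and 3 of every group that change was -1.19 (adjusted p = 0.000213), with 7550 genes called in place of 5473. Against the single knockouts, the dual knockout was lower than HIF1α-ko (log2 difference -3.03, SE 0.38, adjusted p = 0.000176) and lower than HIF2α-ko (-2.04, SE 0.38, adjusted p = 0.000951).

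EGLN2 (chr19:40798996-40808433), a prolyl hydroxylase that is not induced by hypoxia in most cells, was at 23.7, 36.7 and 32.2 TPM in vector, 42.6, 44.4 and 43.7 TPM in HIF1α-ko, 34.1, 24.6 and 40.1 TPM in HIF2α-ko and 49.2, 53.6 and 57.1 TPM in HIF1α/2α-ko. The groups without HIF1α were above all vector libraries. EGLN2 rose to 173% of vector in HIF1α/2α-ko (log2 change 0.79, SE 0.19, adjusted p = 0.00445), which is 0.58 above the median gene, and stayed called with either scaling (0.57 with each). In HIF1α-ko the change of 0.51 was not called (adjusted p = 0.0644). The gene is uncertain because a read-through gene of the same strand, RAB4B-EGLN2, covers 30.6% of its exon bases, and the mean of that gene was 2.00 TPM in vector, 6.80 TPM in HIF1α-ko, 10.7 TPM in HIF2α-ko and 14.4 TPM in HIF1α/2α-ko. How reads were divided between them is not given in the sources used here.

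The summed TPM of the 3 prolyl hydroxylase genes stayed within 62.5 and 73.5 TPM on average while its composition changed. In vector, EGLN1 made up 32.3%, EGLN2 49.1% and EGLN3 18.6 ± 13.0% of the sum (SD, n = 3). The EGLN3 share was 33.6% in vector replicate 1 and 10.3% and 12.02% in the other two. In HIF1α-ko the shares were 8.38%, 60.9% and 30.8%, whereas HIF2α-ko had 40.4%, 44.7% and 14.9%. In HIF1α/2α-ko, EGLN2 made up 83.3 ± 3.16% of the sum (SD, n = 3) and EGLN3 3.0 ± 1.55%. Within libraries, the ratio of EGLN3 to EGLN1 was 1.28, 0.310 and 0.321 in vector, 4.32, 3.23 and 3.64 for the HIF1α knockout, 0.282, 0.404 and 0.409 in HIF2α-ko, with 0.112, 0.288 and 0.234 when both were knocked out. The geometric mean was thus 7.36-fold higher than vector in HIF1α-ko and 0.390-fold in HIF1α/2α-ko, on opposite sides of vector and with no overlap with it (exact permutation p = 0.1 for each). On the log2 scale these changes were 2.88 and -1.36, and without vector replicate 1 they were 3.55 and -0.68.

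**Figure D2:**
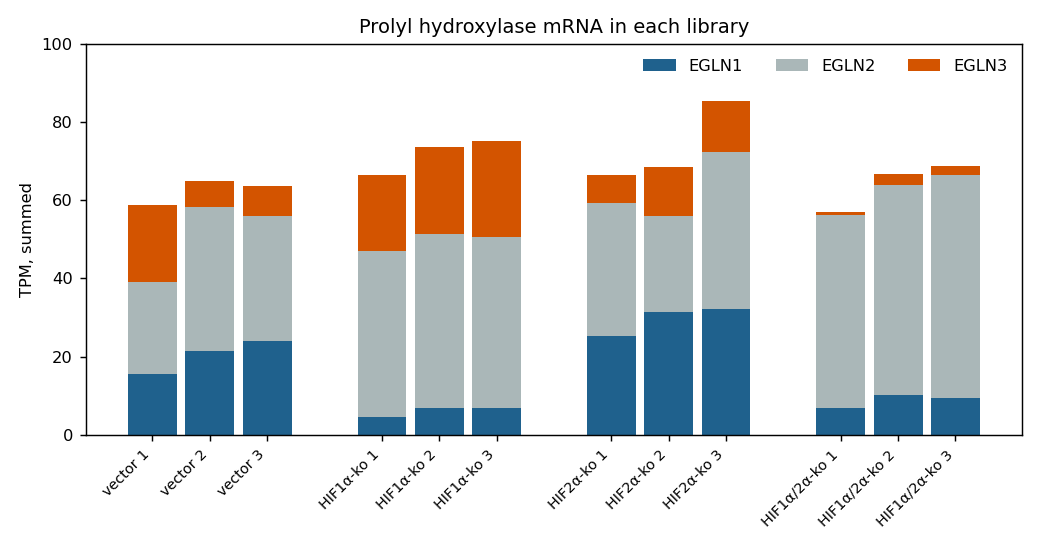
Stacked bars show the TPM of EGLN1, EGLN2 and EGLN3 in each of the 12 libraries, with the summed TPM from 0 on the vertical axis. The EGLN1 part is small in HIF1α-ko and HIF1α/2α-ko, and the EGLN3 part nearly disappears in HIF1α/2α-ko (0.771 to 2.96 TPM). Vector replicate 1 has a larger EGLN3 part (19.7 TPM) than the other vector libraries.

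VHL, the recognition subunit of the ligase, was at 16.1, 13.2 and 14.8 TPM in vector, 19.2, 25.9 and 22.2 TPM in HIF1α-ko, 13.6, 17.6 and 17.2 TPM in HIF2α-ko and 20.5, 31.0 and 31.4 TPM in HIF1α/2α-ko. The groups without HIF1α were above all vector libraries and HIF2α-ko overlapped vector. VHL rose to 188% of vector in HIF1α/2α-ko (log2 change 0.85, SE 0.19, adjusted p = 0.00282), 0.64 above the median gene, and held in all 21 alternatives. In HIF1α-ko it rose to 153% (0.58, SE 0.19, adjusted p = 0.0403), a call that was lost in 9 of 21 alternatives, median ratio scaling included (adjusted p = 0.0541). The dual knockout was also above HIF2α-ko in VHL (0.72, adjusted p = 0.00746).

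HIF1AN, the asparaginyl hydroxylase gene, had the smallest ratio of highest to lowest library. Its libraries were at 15.1, 14.2 and 12.7 TPM in vector, 16.7, 20.1 and 19.7 TPM in HIF1α-ko, 11.8, 16.2 and 15.4 TPM in HIF2α-ko and 14.1, 19.3 and 19.8 TPM in HIF1α/2α-ko. HIF1α-ko lay above vector, and the other groups overlapped it. No change against vector was called (log2 0.40, 0.04 and 0.31, adjusted p = 0.1, 0.922 and 0.16). The 95% intervals reached from 0.03 to 0.78, from -0.34 to 0.41 and from -0.06 to 0.68. NDUFB8, which lies on the opposite strand at a mean of 280 TPM, covers 2.33% of the exon bases of HIF1AN, and whether strand was used in counting is not stated.

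The second question was how the knockouts differed from one another. Between HIF1α-ko and HIF2α-ko, 5 members were called, where the background was 25.1% of genes, 17.8% higher and 7.37% lower in HIF1α-ko. Higher genes made up 70.7% of these calls, and 44.3% with median ratio scaling or 51.8% with quantile normalization. HIF1A, HIF3A and EGLN1 were lower in HIF1α-ko, and EPAS1 (log2 difference 1.31, adjusted p = 8.36e-05) and ARNT2 (0.69, adjusted p = 0.0212) were higher. Of these, HIF1A and EPAS1 are the targeted genes of the groups compared. With the replicate number as a block on the 3 knockout groups, 9 members were called, the added ones being EGLN2 (adjusted p = 0.0383), EGLN3 (0.00288), HIF1AN (0.0120) and VHL (0.0081), each higher in HIF1α-ko. That block called 5927 of the 11731 genes, 74.9% of them higher in HIF1α-ko, where the fit without it called 2949. EGLN3, 0.99 higher in HIF1α-ko (adjusted p = 0.0744), was also called without vector replicate 1 (adjusted p = 0.027) or without HIF1α/2α-ko replicate 1 (0.0471). The ARNT2 call was lost with either scaling between libraries (adjusted p = 0.0679 and 0.0805) and without HIF1α-ko replicate 2 or HIF2α-ko replicate 2 or 3. The HIF1A call was lost without HIF1α-ko replicate 3 (adjusted p = 0.0513) and the HIF3A call without HIF2α-ko replicate 2 (0.0502).

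Between HIF1α/2α-ko and HIF1α-ko, 3 members were called, HIF1A as higher and EPAS1 and EGLN3 as lower in the dual knockout. EPAS1 was targeted in the dual knockout and not in HIF1α-ko. The background was 28.3%, with 17.7% higher and 10.6% lower (62.5% of calls higher, 58.8% with median ratio scaling and 49.9% with quantile normalization). EGLN1 was 0.49 higher in the dual knockout, which was not called (adjusted p = 0.11) but was with the knockout block (adjusted p = 0.00433). The block called 5684 of all genes in this comparison, and the fit without it 3322. Between HIF1α/2α-ko and HIF2α-ko, 6 members were called, where the background was 46.4%, with 33.5% higher and 12.9% lower. The share of higher calls was 72.3%, and 52.7% or 51.1% with these scalings. HIF3A, EGLN1 and EGLN3 were lower, and ARNT2, EGLN2 (log2 difference 0.70, adjusted p = 0.00881) and VHL were higher. The EGLN2 call was lost with median ratio scaling (adjusted p = 0.107) and quantile normalization (0.0861). HIF1AN (0.27, adjusted p = 0.214) was called with the knockout block (adjusted p = 0.0298), which called 7339 of all genes here in place of 5442.

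The third question was whether the dual knockout moved each gene by the sum of its single changes. The interaction subtracts both single changes from the dual change on the log2 scale. It was called for 2 members, where 20.6% of all genes were called, 13.2% above 0 and 7.35% below. Of the calls over all genes, 64.3% were above 0, 57.1% with median ratio scaling and 50.7% with quantile normalization. For EGLN3 the single changes summed to 1.11 on the log2 scale and the dual change was -1.98, an interaction of -3.09 (SE 0.54, 95% interval -4.26 to -1.92, adjusted p = 0.00305). HIF1A was itself targeted in HIF1α-ko and HIF1α/2α-ko. Its single changes summed to -1.86 and the dual change was -0.71, an interaction of 1.15 (SE 0.28, 95% interval 0.55 to 1.75, adjusted p = 0.0131). Both interactions were called in all 20 alternatives. For EGLN1 the sum was -1.05 and the dual change -1.10, and the interaction was -0.05 with an interval of -0.71 to 0.61. The interval was of similar width for HIF3A (-0.46 to 0.70), EGLN2 (-0.38 to 0.77) and VHL (-0.43 to 0.72). None of these was called, and departures from the sum inside the intervals cannot be told from none. In simulated data, 20% of genes with an interaction of 1 on the log2 scale were called, so larger departures can also be missed. EPAS1 (0.41, adjusted p = 0.173), ARNT (0.46, adjusted p = 0.144), ARNT2 (0.52, adjusted p = 0.194) and HIF1AN (-0.13, adjusted p = 0.734) were not called either.

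For 4 members the nearest patterns in the table were sought, as the smallest root mean square difference over the 12 libraries of log2(TPM + 1) from the vector mean, among 8010 genes of at least 5 TPM on average. EGLN1 was nearest to INSIG2 (0.185), SH3D21 (0.199) and CHSY1 (0.200), where the median of all genes compared was 1.20. INSIG2, which restrains sterol synthesis, was at 45.8, 17.2, 71.9 and 19.5 TPM on average in vector, the HIF1α and the HIF2α knockout and the dual knockout. EGLN3 was nearest to F3 (0.271), FAP (0.427) and SHC3 (0.473), where the median was 1.33. F3, which encodes tissue factor, was at 429 ± 221, 671 ± 99.8, 446 ± 155 and 132 ± 69.2 TPM in the same groups. HIF1A was nearest to MID1 (0.137), CCNB1 (0.189) and NCAPH (0.206), and EPAS1 to ZNF503 (0.197), DST (0.303) and MARCHF3 (0.309), with medians of 1.01 and 1.22. These are descriptions with no test, and the libraries shared by all genes contribute to each likeness.

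The core of the hypoxia response element, ACGTG or GCGTG, was looked for on both strands of the RefSeq promoter windows (GRCh38.p14, 250 bases before to 50 after a gene start). The table held 12 windows for 8 members. ACGTG occurs in 21.4% of all 35116 windows, GCGTG in 36.5% and either in 48.4%, and 5 of the 12 windows of members (41.7%) held either. EGLN1 and EGLN2 are shown because their windows hold ACGTG and their levels went in opposite directions in HIF1α/2α-ko. Each stretch has 29 bases on the strand of the gene, with the core in capitals.
EGLN1: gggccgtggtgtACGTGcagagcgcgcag
EGLN2: cggggcgcggtcACGTGcccaccgggcga
The EGLN1 stretch is at chr1:231422284-231422312 on the minus strand, with the core 13 bases before the start of that RefSeq entry and within an exon of a GENCODE 29 transcript with a UTR annotation there. The EGLN2 stretch is at chr19:40799131-40799159 on the plus strand, with the core 48 bases before the start of its RefSeq entry. It lies within the GENCODE 29 gene and overlaps none of its annotated exons. The base before the core of EGLN2 makes it a palindrome, so it was also read on the opposite strand. HIF1A, EPAS1 and HIF3A hold GCGTG alone, and the windows of ARNT, EGLN3 and HIF1AN hold neither core. A match describes letters in a window and is not a binding site.

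The partners and neighbours of these genes in the pathway were followed by lists, whose calls are to be read beside the shares of all genes called, which were 26.1% for the HIF1α knockout, 11.0% for the HIF2α knockout and 46.7% for the dual knockout. Among 17 genes of the VHL ligase and HIF turnover, 2 rose and 2 fell in HIF1α-ko, 1 rose in HIF2α-ko, and the dual knockout had 9 higher and 2 lower, with a median log2 change of 0.40 in the last where that of all genes was 0.21. UCHL1, a deubiquitinase, rose by 1.12 (975 ± 66.5 TPM in vector and 2143 ± 384 TPM in HIF1α/2α-ko, adjusted p = 6.46e-05), and the chaperone HSP90AB1 by 0.65 (adjusted p = 0.00027). Among 11 tested coactivators and competitors of HIF, 2 rose and 2 fell in HIF1α-ko, none was called in HIF2α-ko by limma, and the dual knockout had 5 higher and 1 lower, with a median of 0.52. The Mediator kinase CDK8 rose by 1.60 from 0.868 to 4.73 TPM (adjusted p = 3.11e-05) and SART1, known to bind HIF1α, by 0.92 (adjusted p = 5.47e-05). Of 7 tested factors of the same bHLH-PAS family, 1 fell in HIF1α-ko, none was called in HIF2α-ko, and the dual knockout had 4 higher and 1 lower. The rises included the repressor AHRR (1.58, adjusted p = 0.000162) and the clock factor BMAL1 (0.96, adjusted p = 0.00735).

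Of 15 tested dioxygenases that also use oxygen, 3 rose and 5 fell in HIF1α-ko, HIF2α-ko had 2 rises, and the dual knockout had 2 rises and 4 falls with a median of -0.24. Called genes were thus 6 of 15 in the dual knockout, where 46.7% of all genes were called, and 2 of 15 in HIF2α-ko, where 11.0% were. PLOD1 and PLOD2 are collagen lysyl hydroxylases. PLOD1 was at 627, 289, 630 and 218 TPM on average in vector, the HIF1α and the HIF2α knockout and the dual knockout, low in both groups without HIF1α as EGLN1 was. PLOD2 was at 229, 226, 235 and 86.9 TPM, low in the dual knockout as EGLN3 was, with an interaction of -1.43 (adjusted p = 0.00233). Of 12 HIF target genes, 7 fell in HIF1α-ko, HIF2α-ko had 3 rises, and the dual knockout had 7 falls, with medians of -0.78, 0.07 and -0.90. BNIP3, a mitophagy receptor, was at 1019, 71.7, 1031 and 137 TPM, and the carbonic anhydrase CA9 at 1329, 368, 1792 and 244 TPM in the same order of groups. Both fell in HIF1α-ko (adjusted p = 1.97e-06 and 9.58e-05) and in HIF1α/2α-ko (adjusted p = 1.56e-06 and 1.52e-06). The 2 genes named from each list have its smallest p-values for the dual knockout.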

How the data were processed

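The authors deposited 1 table of TPM values, with 1 column for each of the 12 libraries and no counts. Per the labels, poly(A) libraries were made with a VAHTS mRNA-seq V2 kit, and the submitters' processing notes name GRCh38, FastQC 0.11.2, Trimmomatic 0.36, HISAT2 2.0 and bedtools 2.26.0. The counting tool, its use of strand and the annotation are not given in the sources used here. The 3 columns named without a knockout code were read as vector. Symbols were matched for 20148 genes by identifier and 76 more through GENCODE 29.

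TPM was transformed to log2(TPM + 1), and limma 3.58.1 (R 4.3.3) was fitted to genes with at least 1 TPM in at least 3 libraries, with a mean-variance trend and all groups together. P-values were Benjamini-Hochberg adjusted within each of 7 contrasts at a threshold of 0.05. Ratios were tested with two-sided exact permutation tests (scipy 1.17.1). Depth is unknown, so no counting interval or detection limit was given. Members and lists were chosen with earlier results of these data known. The genes named are the members, the 3 nearest patterns of HIF1A, EPAS1, EGLN1 and EGLN3, and 2 genes from each list.

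Same-numbered libraries of the 3 knockout groups deviated together (Pearson's r across genes 0.196 to 0.508) and those of vector did not share this (-0.0265 to 0.163). The numbers may thus pair the knockout groups, which is read from the values alone. The main fit ignores this pairing, which entered only as the replicate blocks among the alternatives. Between the knockout groups, the main fit called 5, 3 and 6 members and the knockout block 9, 4 and 7. Over all genes the main fit called 2949, 3322 and 5442 and the knockout block 5927, 5684 and 7339. Alternatives were a pseudocount of 0.1, no filter, a mean TPM of at least 5, median ratio scaling, quantile normalization, no trend, replicate blocks, replicates 2 and 3 of every group, the compared groups alone, and each library left out in turn. The model was also tested on simulated data with known changes in the dual knockout. Against vector, 61.5% of genes with a simulated log2 change of 1 were called and 95.5% with 2. By the interaction, 20% and 86% were called. The simulation changed 200 of 11731 genes and drew the noise of each library independently. In the data 5473 genes were called in the dual knockout against vector and libraries deviated together, so these rates may not hold there.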

Additional observations from a re-analysis of the deposited data

Results flagged for a closer look

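In 2 members the dual change differed from the sum of the single changes, by the test of the interaction in limma (Benjamini-Hochberg adjusted). EGLN3 had an interaction of -3.09 on the log2 scale (adjusted p = 0.00305). In cells with HIF1α, EGLN3 was at 7.09 to 13.2 TPM without HIF2α and at 19.7, 6.68 and 7.66 TPM in vector, a change that was not called with all 12 libraries and was called as a rise with replicates 2 and 3 of every group (0.77, adjusted p = 0.0048). That setting called 4283 of all 11731 genes there in place of 1286. In cells without HIF1α, EGLN3 was at 0.771 to 2.96 TPM without HIF2α and at 19.3 to 24.7 TPM with it. Over the 20 alternatives the interaction ranged from -3.67 to -2.75, and without vector replicate 1, in which EGLN3 was high, it was -3.54. HIF1A had an interaction of 1.15 (adjusted p = 0.0131). Its level in HIF1α/2α-ko (67.8 to 89.2 TPM) was above that in HIF1α-ko (38.6 to 57.3 TPM), although the gene was targeted in both. An effect of the HIF2α knockout cannot be told apart here from a difference between the edits or clones of these groups. The interaction of HIF1A ranged from 1.00 to 1.39 over the alternatives. What sets these levels was not tested.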

How the results depend on the processing

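Of 1476 values of single members under the alternatives, 1356 kept their direction and their side of the threshold, 52 were no longer called, 38 became called and 30 turned sign, none of them among the 31 called of 70. The count of members called in HIF1α-ko (5) was 9 with replicates 2 and 3 of every group and 3 with the compared groups alone. With a library left out it was 2 to 7. Of all 11731 genes, these settings called 6461, 2141 and 1552 to 4194 in this order, where the main fit called 3060. The member count was 2 without vector replicate 2, vector replicate 3 or HIF1α-ko replicate 3. It was 3 without HIF1α-ko replicate 1 or 2 or HIF2α-ko replicate 3. In HIF2α-ko the count (2) was 5 with replicates 2 and 3, 1 with the compared groups alone and 1 to 2 with a library left out. It was 1 without vector replicate 2 or HIF2α-ko replicate 1. Genes called there were 4283, 474 and 471 to 2497 in the same order of settings, in place of 1286. In HIF1α/2α-ko the count (8) was 7 to 9 with a library left out and 10 with replicates 2 and 3. These settings called 4319 to 5961 and 7550 genes, in place of 5473. Between HIF1α-ko and HIF2α-ko (5) the count was 3 at a mean TPM of at least 5, where HIF3A and ARNT2 were not tested. It was 8 with replicates 2 and 3, 9 with the knockout block and 3 to 7 with a library left out (3 without HIF2α-ko replicate 2). Genes called there were 2064 of 8011, 5521, 5927 and 1451 to 3746 in this order, in place of 2949. Between HIF1α/2α-ko and HIF1α-ko (3) the count was 5 with replicates 2 and 3 and 2 to 3 with a library left out. These settings called 5276 and 2310 to 4072 genes, in place of 3322. Between HIF1α/2α-ko and HIF2α-ko (6) the count was 5 to 6 with a library left out and 4 at a mean TPM of at least 5. With replicates 2 and 3 or the knockout block it was 7. Genes called there were 4237 to 6004, 3825 of 8011, 7122 and 7339 in this order, in place of 5442. The interaction count (2) was 3 with replicates 2 and 3, where EPAS1 was called (adjusted p = 0.0259), and 2 in the other alternatives. Replicates 2 and 3 called 5040 genes by the interaction, in place of 2414. With the replicate number as a block in all 4 groups the counts were 5, 3, 8, 5, 4, 6 and 2. The same block called 3968, 2068, 6165, 3991, 4082, 6107 and 3240 genes in these comparisons. EGLN1 in HIF2α-ko was called with it (adjusted p = 0.0126), and outside the block results given above no other call changed. EPAS1 in HIF1α-ko became called with median ratio scaling (-0.48, adjusted p = 0.0218) and with replicates 2 and 3 of every group (adjusted p = 0.0136). The cause of these moves was not tested.

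The values that turned sign were not called. EGLN2 in HIF2α-ko was -0.13 with replicates 2 and 3. With median ratio scaling, ARNT between HIF1α-ko and HIF2α-ko was -0.0081 and EPAS1 between HIF1α/2α-ko and HIF2α-ko was -0.14. With quantile normalization, between the latter groups EPAS1 was -0.043 and HIF1AN -0.049, and the interactions of EGLN2 and VHL were -0.0035 and -0.023. The log2 ratio of ARNT to ARNT2 in HIF2α-ko was -0.28 with 1 added to each TPM. With 1 library left out, the changes in HIF2α-ko ranged from -0.027 to 0.15 for HIF3A, -0.087 to 0.28 for EGLN2, -0.21 to 0.51 for EGLN3, -0.048 to 0.17 for HIF1AN, -0.44 to 0.25 for the ratio of ARNT to ARNT2 and -0.83 to 0.19 for that of EGLN3 to EGLN1. Between HIF1α/2α-ko and HIF1α-ko, HIF1AN ranged from -0.18 to 0.054. Between HIF1α/2α-ko and HIF2α-ko, EPAS1 ranged from -0.0067 to 0.23 and ARNT from -0.095 to 0.056. The interactions ranged from -0.0058 to 0.26 for HIF3A, -0.22 to 0.13 for EGLN1 and -0.26 to 0.018 for HIF1AN.

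The scalings brought the median gene to within 0.07 of 0 in the 7 comparisons.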
